A study of Mus musculus with 6 samples.

Results

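Transcripts of the Wnt signalling pathway were followed in primary mouse cardiac fibroblasts that received saline or PDGF-DD. The set holds every gene of the deposited tables whose symbol begins with Wnt, Fzd, Dkk, Sfrp or Rspo and a number, together with a fixed list of receptors, inhibitors and intracellular components. It was drawn by name rather than by measured value, but with earlier results of these data known. It comprised 60 of the 18059 genes listed. By role these were 17 Wnt ligands, 14 receptors and co-receptors, 9 genes of the R-spondin axis, 11 inhibitors and 9 intracellular members.

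The study sequenced 6 messenger RNA libraries, 3 labelled control (saline) and 3 labelled PDGF-DD, a growth factor made of paired PDGF-D chains that acts through PDGF receptors. Exposure lasted 12 hours, and the labels state a dose of 20 µM, which is very high for a protein growth factor, so that its unit is doubtful. The cells were isolated from hearts of C57BL/6 mice aged 1 to 2 weeks and cultured with 15% serum. The labels disagree on genotype. According to the growth protocol every cell came from global PDGF-D knockout mice, whereas the genotype field gives "control" for the saline libraries and PDGF-D -/- for the PDGF-DD libraries, and in that second case genotype and treatment cannot be told apart. Whether replicate libraries came from separate cultures or animals is not stated, and the spread on which p-values rest may therefore be purely technical.

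Depth lay between 21221114 and 21371829 estimated counts per library. Pdgfd reads were present in all libraries, with 118, 114 and 91 counts in control and 69, 72 and 82 with PDGF-DD (log2 fold change -0.55, edgeR adjusted p = 0.00245). Gene-level counts cannot tell transcripts of a knockout allele from intact ones. Control replicate 1 differed more from the other control libraries (chi-square per degree of freedom 5.11 and 5.71) than those did from each other (2.48). All 7 fibroblast markers were expressed, their summed level being 32500 to 33910 CPM (counts scaled to library size) in control and 28930 to 29840 with PDGF-DD. Of these markers 5 were called lower and 1 higher (71.4% and 14.3%, beside 17.4% and 19.1% over all genes tested). Most of the fibroblast sum was Col1a1 and Col1a2, with control means of 20770 and 11520 CPM. Dcn and Thy1 were at 467 and 303 CPM in control, and Pdgfra, Tcf21 and Lum at 135, 131 and 75.8. Sums of markers of other heart cells were much lower than the fibroblast sum. Single genes among them, such as Notch3 (169 CPM in control) and Tnnt2 (156), were above Pdgfra, Tcf21 and Lum. None of these other markers was at 0 in any library. The 5 mural markers summed to between 298 and 318 CPM in control and between 227 and 235 with PDGF-DD. They did not move together: Notch3 (169 to 86.6 CPM), Myh11 and Rgs5 were called lower, and Cspg4 (108 to 128 CPM) higher. The 6 cardiomyocyte markers, mostly Tnnt2, summed to between 162 and 172 CPM in control and between 117 and 132 with PDGF-DD. Of these 6 markers 3 were called lower and 0 higher. The endothelial sum was 192 to 203 CPM against 183 to 189, and the macrophage and leukocyte sum 46.6 to 52.6 against 43.3 to 46.5. Epicardial markers summed to 37.9 to 42.3 CPM against 33.0 to 36.3, and Schwann markers to 6.79 to 8.13 against 6.45 to 6.95. The part of these marker differences in the results below was not tested. In such bulk libraries fewer cells of a type and less RNA per cell cannot be told apart.

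Wnt proteins are secreted lipid-modified ligands. They bind Frizzled receptors, and with the co-receptors LRP5 or LRP6 they stabilise β-catenin, which then activates genes together with TCF/LEF factors, while other Wnt proteins signal without β-catenin, for example WNT5A through the receptor tyrosine kinase ROR2. R-spondins bound to LGR4, LGR5 or LGR6 block the ubiquitin ligases ZNRF3 and RNF43, which otherwise remove Frizzled receptors from the surface. SFRP proteins, FRZB and WIF1 bind Wnt ligands, and DKK1, DKK2 and DKK4 bind LRP5/6. In the heart the pathway is best known for its roles in development and in the response of fibroblasts to injury.

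Of the 60 members, 40 passed the filter on low counts and were tested, and 5 of them rose and 17 fell with PDGF-DD (edgeR's quasi-likelihood test, adjusted p under 0.05 over all 13270 genes tested). Those that rose were the ligand genes Wnt2 and Wnt5a, the receptor genes Ror2 and Lgr6 and the inhibitor gene Dkk2. The falls included 6 of 9 tested Frizzled genes, the co-receptor gene Lrp5, the ligand genes Wnt4 and Wnt9a, Rspo1 and Lgr4, and the inhibitor genes Sfrp1, Sfrp2, Dkk3, Kremen1, Nkd1 and Nkd2. Over all genes tested, 36.5% were called, 19.1% as higher and 17.4% as lower. Among tested members, 55% were called, 12.5% as higher and 42.5% as lower. The median log2 fold change of tested members was -0.09, compared with -0.01 over all genes. Tested members spanned log2 fold changes from -1.05 (Wnt4 and Rspo1) to 1.85 (Lgr6), and all called members except Rspo1 were at or above the count level of the filter in both groups. Where groups are said below not to overlap, this only describes the values, as the share of all genes without overlap was not counted.

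**Figure D1:**
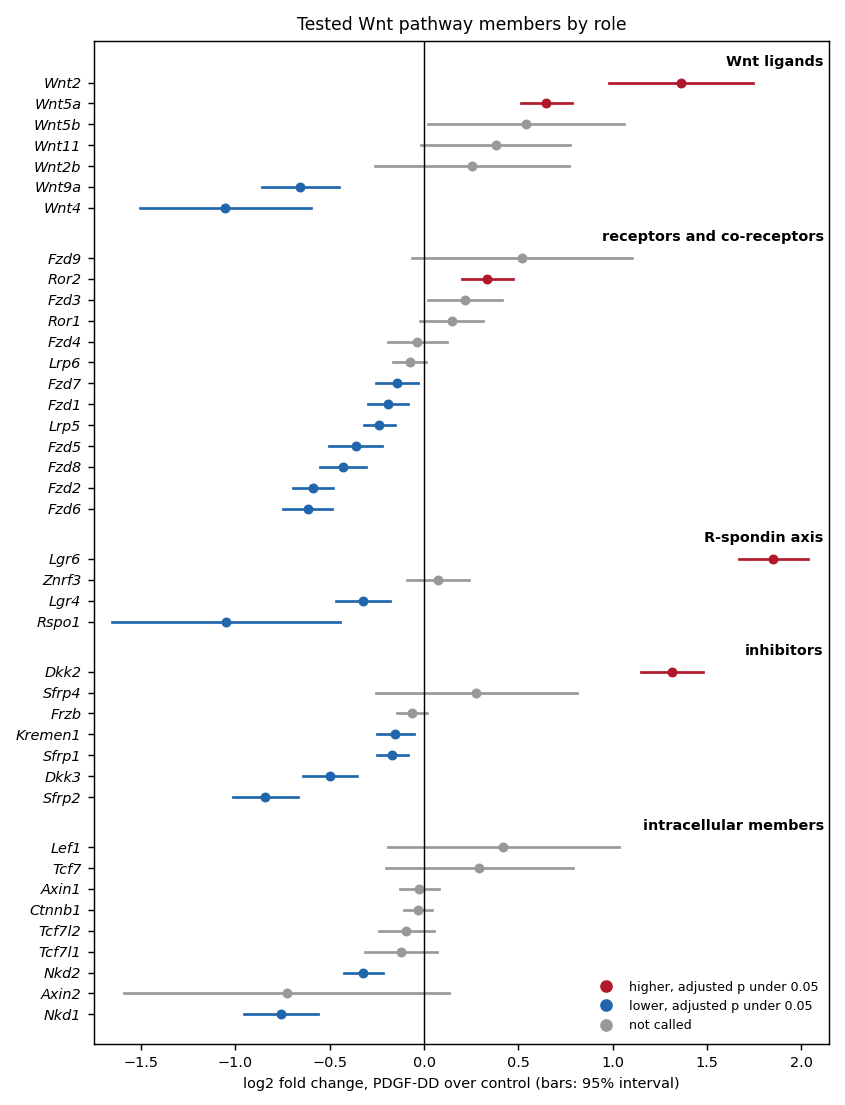
Log2 fold change (PDGF-DD over control, x axis) of the 40 tested members, grouped by role, with 95% intervals as bars and colour for the call at an adjusted p under 0.05. Lgr6, Wnt2 and Dkk2 lie above 1 and 6 Frizzled genes lie below 0 in blue.

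The promoters of the members that rose are shown because these genes moved against the falls of most called members. A window from 250 bases before to 50 bases after an annotated start was found for 40 of the 60 members in a RefSeq table of build GRCm38.p6 (the submitters' notes name mm9), including 4 of the 5 that rose. They lie at chr1:135105227-135105526 (minus strand) for Lgr6, chr3:132085042-132085341 (plus strand) for Dkk2, chr6:18030396-18030695 (minus strand) for Wnt2 and chr13:53286075-53286374 (minus strand) for Ror2. Capitals mark matches on either strand to letters of 6 motifs. TGANTCA is read by AP-1 factors and CTTTGA by TCF/LEF factors, CACGTG is an E-box, GGGCGG is a GC box, and CCAAT and TATAAA name the boxes of general promoters.
Lgr6: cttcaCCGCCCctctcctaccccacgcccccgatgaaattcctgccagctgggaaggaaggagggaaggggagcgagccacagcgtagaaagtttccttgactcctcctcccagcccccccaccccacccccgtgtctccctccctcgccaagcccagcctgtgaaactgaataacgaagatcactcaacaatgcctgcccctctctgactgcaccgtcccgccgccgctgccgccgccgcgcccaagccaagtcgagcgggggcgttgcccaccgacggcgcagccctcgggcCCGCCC
Dkk2: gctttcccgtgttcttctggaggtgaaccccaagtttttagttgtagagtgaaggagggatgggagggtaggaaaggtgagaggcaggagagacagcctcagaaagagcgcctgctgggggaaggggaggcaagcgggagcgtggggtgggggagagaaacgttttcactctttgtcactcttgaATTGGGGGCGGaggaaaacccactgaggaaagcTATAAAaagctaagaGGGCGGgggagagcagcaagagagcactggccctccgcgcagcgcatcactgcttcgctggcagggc
Wnt2: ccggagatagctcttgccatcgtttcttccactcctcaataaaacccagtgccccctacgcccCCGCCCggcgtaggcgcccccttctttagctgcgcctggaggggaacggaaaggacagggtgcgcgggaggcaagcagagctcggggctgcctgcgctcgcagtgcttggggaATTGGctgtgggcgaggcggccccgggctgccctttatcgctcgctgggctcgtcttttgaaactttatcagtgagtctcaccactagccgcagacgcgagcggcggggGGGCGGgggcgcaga
Ror2: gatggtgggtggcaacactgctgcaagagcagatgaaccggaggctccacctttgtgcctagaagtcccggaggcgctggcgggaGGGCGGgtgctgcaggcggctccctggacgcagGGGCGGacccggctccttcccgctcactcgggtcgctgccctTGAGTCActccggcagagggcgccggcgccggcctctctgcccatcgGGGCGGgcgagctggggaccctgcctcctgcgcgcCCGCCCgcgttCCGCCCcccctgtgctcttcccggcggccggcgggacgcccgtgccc
Each of these windows held GC box letters, 5 matches in Ror2 and 2 in each of the others. The GC box was present in 35.7% of all 32851 windows of the same length and in 35 of the 50 windows of members. Among members it was in 19 of 22 windows of uncalled genes, 4 of 10 of lower genes and 8 of 14 of untested genes. Windows of members were also richer in G and C, with a median of 66.5% beside 52.7% over all windows. Ror2 held the AP-1 letters, at position -90 relative to the start, which were found in 7.81% of all windows and in 2 of the 50 windows of members, the other being of the uncalled Wnt5b. Dkk2 held TATAAA at -32 and CCAAT letters, read on the other strand, at -65, which abut a GC box match. Wnt2 also held CCAAT letters on the other strand, at -74. None of the 4 windows held the TCF/LEF letters, which were in 16% of all windows and in 7 of the 50 windows of members, nor the E-box letters (7.15% of all windows and 5 of 50). CCAAT letters occurred in 37.4% of all windows and TATAAA in 13.6%, and in 16 and 9 of the windows of members. No matches overlapped in these windows. A match is a description of letters and not of a bound site.

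Of the 7 tested ligand genes, Wnt2 and Wnt5a rose, Wnt4 and Wnt9a fell and 3 did not pass. Each direction held 28.6% of those tested, beside 19.1% higher and 17.4% lower over all genes. Wnt5a, a ligand known mainly for signalling without β-catenin, was measured at 18.2, 17.8 and 18.7 CPM in control and 28.5, 27.5 and 29.8 with PDGF-DD. All 3 PDGF-DD libraries lay above all controls (log2 fold change 0.65, SE 0.06, edgeR adjusted p = 1.28e-08). Wnt2, a ligand able to activate β-catenin, stood at 1.93, 1.42 and 1.18 CPM in control and 4.46, 3.69 and 3.54 with PDGF-DD. These values rest on 25 to 41 counts in control libraries and 76 to 95 with PDGF-DD, and the groups did not overlap (2.57-fold higher, log2 fold change 1.36, SE 0.18, edgeR adjusted p = 1.72e-06).

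Wnt9a, with 10.4, 9.87 and 12.1 CPM in control and 6.61, 7.24 and 6.62 with PDGF-DD, was 1.58-fold lower (log2 fold change -0.66, SE 0.10, edgeR adjusted p = 8.24e-06). Wnt4, a ligand of kidney and gonad development, had 2.50, 2.08 and 3.69 CPM in control, where replicate 3 was highest, and 1.31, 1.17 and 1.49 with PDGF-DD. Every PDGF-DD library was below every control for both genes (Wnt4 log2 fold change -1.05, SE 0.22, edgeR adjusted p = 0.000441). Wnt11, Wnt5b and Wnt2b did not pass, with log2 fold changes of 0.38, 0.54 and 0.25 and edgeR adjusted p of 0.127, 0.0971 and 0.46. Wnt11 passed as higher without control replicate 1 (adjusted p = 0.0345) and in limma on FPKM (0.0459), while its highest adjusted p was 0.5, without control replicate 3.

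The other 10 ligand genes were too low to test, with at most 48 counts over the 6 libraries. Wnt10b had 8, 7 and 8 counts in control and 9, 7 and 9 with PDGF-DD, and Wnt7a 9, 2 and 5 against 6, 8 and 4. Wnt6, Wnt1, Wnt8a, Wnt7b and Wnt8b had 8, 3, 2, 1 and 1 counts in all libraries together, and Wnt3 had none. Levels per length, in TPM (scaled for transcript length and library size), put Wnt5a (7.77 ± 0.27) and Wnt9a (7.48 ± 0.87) close together at the top in control (SD, n = 3). With PDGF-DD Wnt5a was at 12.1 ± 0.83 TPM and next came Wnt9a at 4.68 ± 0.18 and Wnt2 at 3.82 ± 0.48. Wnt5a made up 32.3% ± 2.11 of the summed TPM of the 17 ligand genes in control and 43.4% ± 2.78 with PDGF-DD, and Wnt9a 30.9% ± 2.64 and 16.7% ± 0.93 (SD, n = 3).

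**Figure D2:**
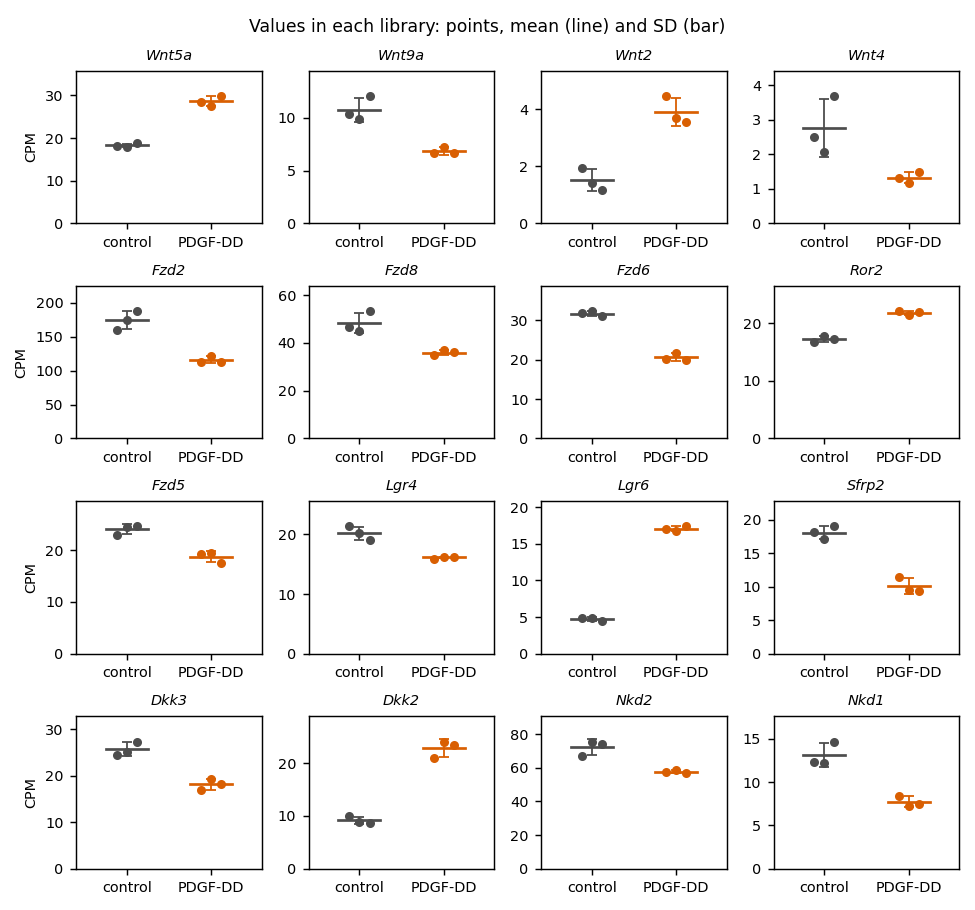
CPM (y axis, from 0) in each control and PDGF-DD library for the 16 called members that average 1 CPM or more and have an absolute log2 fold change of at least 0.3, with the mean as a line and the SD as a bar. In each panel the 3 points of one group lie apart from the 3 points of the other, from Lgr6 (4.72 to 17.1 CPM) to Nkd2 (72.3 to 57.8 CPM). Panels were picked by call and size of change, which favours such separation. The share of all genes without overlap was not counted. The uncalled Frzb, Wnt5b, Sfrp4, Tcf7 and Fzd3 had no overlap either.

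No Frizzled gene was called higher, and 6 of the 9 tested were lower (66.7%, beside 17.4% over all genes), 1 of them, Fzd7, by a call that most alternatives ended. Fzd2, the most abundant of them, was measured at 161, 175 and 188 CPM in control and 113, 122 and 113 with PDGF-DD. Its controls differed by more than its PDGF-DD libraries, yet the lowest control lay above the highest PDGF-DD library (log2 fold change -0.59, SE 0.05, edgeR adjusted p = 1.81e-08). Fzd6 fell by a similar factor, from 31.8, 32.3 and 31.1 CPM to 20.2, 21.8 and 20.0 (log2 fold change -0.62, SE 0.06, edgeR adjusted p = 1.54e-08). Fzd8 had 46.8, 45.0 and 53.2 CPM in control and 34.9, 36.9 and 36.0 with PDGF-DD, 1.35-fold lower (edgeR adjusted p = 2.62e-06). Fzd5 had 23.1, 24.6 and 24.6 CPM in control and 19.3, 19.4 and 17.5 with PDGF-DD, 1.29-fold lower (edgeR adjusted p = 0.000129). In all of these the groups were fully separated, as in the uncalled Fzd3. The share of all genes so separated was not counted.

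Fzd1 fell less, from 61.3 ± 3.76 to 53.7 ± 1.15 CPM (SD, n = 3; log2 fold change -0.19, edgeR adjusted p = 0.00387). Fzd7, at 52.0 ± 3.52 and 47.1 ± 2.11 CPM, was called lower by a narrow margin with overlapping groups (log2 fold change -0.14, edgeR adjusted p = 0.041). That call was lost with the replicate number as a block (adjusted p = 0.0582), under total count scaling (0.0594), in DESeq2 (0.136) and in limma on FPKM (0.131). It was also lost when control replicate 2 (0.228) or 3 (0.106) was left out, or PDGF-DD replicate 1 (0.198) or 2 (0.148), and the smallest adjusted p of the alternatives was 0.00482. Fzd3, Fzd4 and Fzd9 did not pass, with log2 fold changes of 0.22, -0.04 and 0.52. The 95% interval of Fzd4 ran from -0.19 to 0.12, while that of Fzd9, which had 12 to 28 counts per library, ran from -0.06 to 1.10. Fzd10 had 5, 2 and 3 counts in control and 5, 5 and 4 with PDGF-DD and was not tested. Summed over the 10 Frizzled genes the level was 222, 246 and 262 TPM in control and 180, 184 and 181 with PDGF-DD. The lowest sum among controls was that of replicate 1, still above all PDGF-DD libraries, and Fzd2 gave 45.8% ± 0.93 of the sum in control and 40.5% ± 0.92 with PDGF-DD (SD, n = 3).

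The 2 LRP co-receptor genes gave different calls. Lrp5 had 137, 137 and 139 CPM in control and 121, 114 and 115 with PDGF-DD, without overlap (log2 fold change -0.24, SE 0.04, edgeR adjusted p = 3.55e-05). Lrp6, at 120 ± 5.27 CPM in control and 114 ± 3.36 with PDGF-DD (SD, n = 3), did not pass (log2 fold change -0.08, interval -0.16 to 0.01, edgeR adjusted p = 0.179), except without control replicate 1 (0.0416, and up to 0.52 under the other alternatives). Whether the changes of Lrp5 and Lrp6 differ was not tested. Ror2, the receptor that pairs with WNT5A, had 16.8, 17.8 and 17.3 CPM in control and 22.1, 21.5 and 21.9 with PDGF-DD. Ror2 was thus the only called receptor or co-receptor gene of this role that was higher, 1.26-fold (log2 fold change 0.34, SE 0.07, edgeR adjusted p = 0.000226). Its relative Ror1 was at 12.6 ± 0.39 and 14.0 ± 1.1 CPM (SD, n = 3) and did not pass (log2 fold change 0.15, edgeR adjusted p = 0.162).

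Lgr6 showed the largest change of all tested members, and Lgr4, its relative, moved the other way. Lgr6 had 4.85, 4.86 and 4.44 CPM in control and 17.0, 16.8 and 17.4 with PDGF-DD, which is 94 to 103 counts against 359 to 373. The spread within each group was small beside this 3.61-fold difference (log2 fold change 1.85, SE 0.09, adjusted p = 2.59e-14 in edgeR). A two-sided exact permutation of the libraries returned p = 0.1, below which 3 against 3 cannot go. Every gene without overlap gets this value, so it adds nothing about Lgr6 in particular. Lgr4 had 21.4, 20.2 and 19.1 CPM in control and 15.95, 16.2 and 16.3 with PDGF-DD, and its groups did not overlap either (log2 fold change -0.32, SE 0.07, edgeR adjusted p = 0.000548). Lgr5, a stem cell marker in gut, had at most 2 counts in any library.

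Per length, Lgr4 stood at 9.20 ± 0.31 TPM and Lgr6 at 2.22 ± 0.23 TPM in control, and with PDGF-DD they stood at 7.30 ± 0.10 and 7.60 ± 0.16 TPM (SD, n = 3). Lgr6 therefore gave 20.8%, 18.1% and 19.1% of the summed TPM of the 3 Lgr genes in control libraries and 50.4%, 51.7% and 50.7% with PDGF-DD. The sum itself was 11.4 ± 0.47 TPM in control and 14.9 ± 0.21 with PDGF-DD. Transcripts of the ligands of these receptors were scarce. Rspo1, which passed the filter only through the control libraries, had 22, 22 and 22 counts there and 11, 11 and 10 with PDGF-DD (log2 fold change -1.05, SE 0.29, edgeR adjusted p = 0.00617), a call lost in DESeq2 (adjusted p = 0.0765). Rspo2 had 6, 6 and 10 counts in control and 4, 5 and 2 with PDGF-DD, Rspo3 7, 2 and 6 against 3, 3 and 3, and Rspo4 3 counts in all. Of the ubiquitin ligase genes, Znrf3 was at 13.0 ± 0.54 and 13.7 ± 1.03 CPM and did not pass (log2 fold change 0.07, interval -0.09 to 0.24), and Rnf43 had 8 counts in all libraries together.

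**Figure D3:**
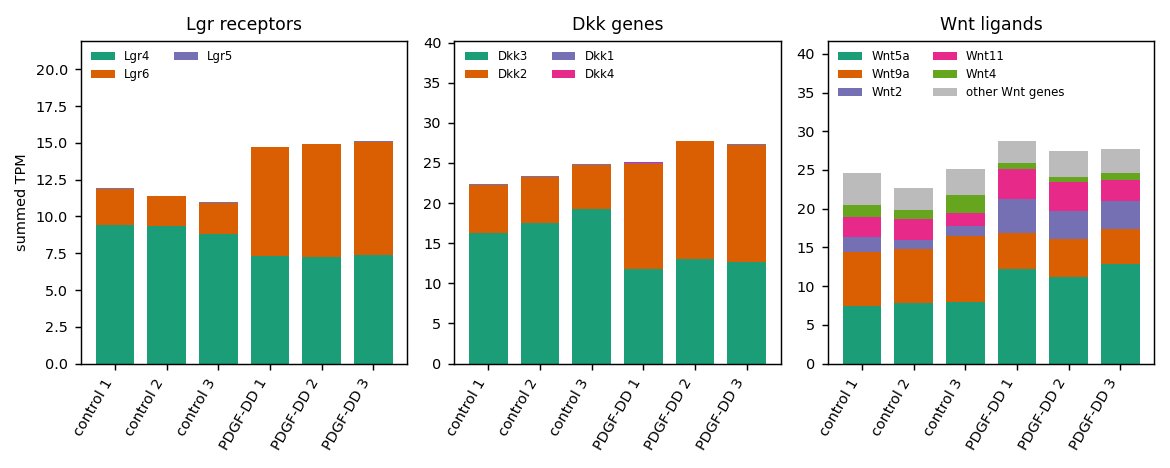
Summed TPM (y axis, from 0) in each library, stacked by gene, for the Lgr receptors, the Dkk genes and the Wnt ligands. Lgr6 and Dkk2 take 50.9% and 52.9% of their stacks with PDGF-DD, compared with 19.4% and 24.4% in control.

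Of the 7 tested inhibitor genes 4 fell, 2 did not pass and Dkk2 rose. These are 57.1% lower and 14.3% higher, beside 17.4% and 19.1% over all genes. Dkk2, which binds LRP5/6, had 9.94, 8.92 and 8.70 CPM in control and 20.97, 24.1 and 23.45 with PDGF-DD. The lowest PDGF-DD library was far above the highest control (2.48-fold higher, log2 fold change 1.31, SE 0.08, adjusted p = 1.67e-12 in edgeR). Dkk3, a divergent member of the family, had 24.6, 25.1 and 27.4 CPM in control and 16.9, 19.3 and 18.3 with PDGF-DD, without overlap (log2 fold change -0.50, SE 0.07, edgeR adjusted p = 3.09e-06). In TPM, Dkk3 was the higher of both in control (17.7 ± 1.53 against 5.73 ± 0.26) and Dkk2 with PDGF-DD (14.1 ± 0.91 against 12.5 ± 0.66; SD, n = 3). Dkk1 had 2, 4 and 2 counts in control and 2, 0 and 1 with PDGF-DD, and Dkk4 had 2 counts in 1 library.

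Frzb and Sfrp1 were the most abundant inhibitors. Frzb was at 158, 167 and 161 CPM in control and 153, 157 and 155 with PDGF-DD and did not pass (log2 fold change -0.07, interval -0.15 to 0.01, edgeR adjusted p = 0.192). Sfrp1 had 191, 201 and 204 CPM in control and 179, 180 and 171 with PDGF-DD, a small fall without overlap (log2 fold change -0.17, SE 0.04, edgeR adjusted p = 0.00155). Sfrp2, a matrix-associated relative expressed by activated fibroblasts, had 18.1, 17.1 and 19.0 CPM in control and 11.5, 9.53 and 9.28 with PDGF-DD. It was 1.79-fold lower (log2 fold change -0.84, SE 0.08, edgeR adjusted p = 1.39e-08). Kremen1, a membrane partner of DKK proteins, was at 55.2 ± 0.59 and 49.7 ± 1.51 CPM (log2 fold change -0.15, edgeR adjusted p = 0.0135), and the call was lost without PDGF-DD replicate 1 (adjusted p = 0.103), in DESeq2 (0.064) and in limma on FPKM (0.073), the lowest value being 0.00577. Sfrp4 was near 1 CPM and did not pass (log2 fold change 0.28, edgeR adjusted p = 0.436), and Sfrp5 and Wif1 had 3 counts each. The 10 secreted inhibitor genes together were at 280 ± 14.1 TPM in control and 255 ± 1.89 with PDGF-DD (SD, n = 3), a sum that Frzb and Sfrp1 dominate.

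**Figure D4:**
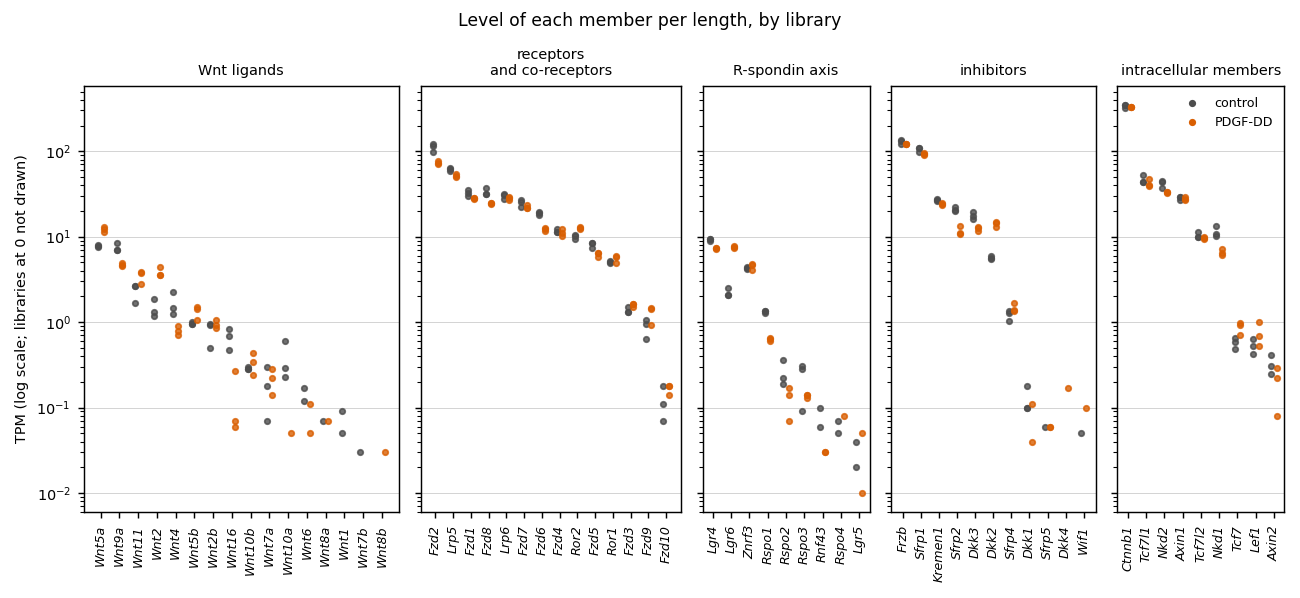
TPM (y axis, log scale) of members by role in each library, with control in grey and PDGF-DD in orange, and libraries at 0 not drawn. Ctnnb1 is highest, near 337 TPM in control, and Axin2 lowest among tested members, at 0.32 TPM.

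Among the intracellular members only the NKD genes were called, both lower. They are 22.2% of the 9 tested, beside 36.5% called in either direction and 17.4% called lower over all genes. Nkd1 and Nkd2 encode inhibitors that bind Dishevelled, and Nkd1 is a common feedback target of β-catenin. Nkd1 had 12.4, 12.2 and 14.7 CPM in control and 8.44, 7.29 and 7.51 with PDGF-DD (1.69-fold lower, log2 fold change -0.76, SE 0.10, edgeR adjusted p = 5.59e-07). Nkd2 had 66.9, 75.6 and 74.3 CPM in control and 57.3, 59.0 and 57.1 with PDGF-DD (log2 fold change -0.32, SE 0.05, edgeR adjusted p = 1.17e-05). Neither gene had overlapping groups.

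Ctnnb1, which encodes β-catenin, was at 506, 522 and 520 CPM in control and 503, 510 and 502 with PDGF-DD. The groups overlapped and it did not pass (log2 fold change -0.03, interval -0.11 to 0.04, edgeR adjusted p = 0.534). Tcf7l1, mainly a repressor among the TCF factors, had 55.1, 53.2 and 63.3 CPM in control and 58.6, 51.2 and 48.0 with PDGF-DD, overlapping widely (log2 fold change -0.12, edgeR adjusted p = 0.308), and it passed as lower only without PDGF-DD replicate 1 (0.0337). The scaffold gene Axin1 and Tcf7l2 did not pass, with log2 fold changes of -0.02 and -0.09 and intervals of -0.13 to 0.08 and -0.24 to 0.05. Tcf7 and Lef1, at about 1 CPM, had log2 fold changes of 0.29 and 0.42 (edgeR adjusted p = 0.365 and 0.287), and Tcf7 passed as higher in limma on FPKM (0.0494). Axin2, a widely used readout of β-catenin activity, had 13, 9 and 16 counts in control and 8, 3 and 12 with PDGF-DD. At that depth its interval, from -1.59 to 0.13, holds both a 2-fold fall and no change (edgeR adjusted p = 0.182).

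Other genes of the pathway, a list of 72 that includes Dishevelled, glypican, planar polarity and destruction complex genes, had 1 rise and 27 falls among 65 tested, with a median log2 fold change of -0.14. These are 1.54% and 41.5% of those tested, beside 19.1% higher and 17.4% lower over all genes. The falls ranked first by p were those of Tnks, a tankyrase that promotes axin turnover (130 ± 4.98 to 83.0 ± 5.97 CPM), Gpc4, a glypican (155 ± 5.43 to 108 ± 4.42), and the Dishevelled-binding genes Dact3 (59.0 ± 4.37 to 35.4 ± 2.08) and Dact1 (34.9 ± 0.93 to 21.5 ± 0.34; SD, n = 3), with log2 fold changes of -0.64, -0.52, -0.74 and -0.70. The single rise, of the Wnt co-factor gene Cthrc1, was small (log2 fold change 0.12, edgeR adjusted p = 0.033), and was lost with the replicate number as a block (adjusted p = 0.0812), under upper-quartile scaling (0.0737) and in DESeq2 (0.0765). Leaving out control replicate 2 (0.0525) or 3 (0.0895), or PDGF-DD replicate 1 (0.0999), ended the call as well, and the smallest adjusted p was 0.0194. With control replicate 1 or PDGF-DD replicate 2 left out, 2 genes of the list were called higher. By mean TPM the 2 most abundant genes of this list were the GTPase gene Rhoa, which did not pass (log2 fold change -0.07, edgeR adjusted p = 0.157), and Tle5, of the TLE co-repressor family, which fell from 407 ± 16.7 to 352 ± 12.8 CPM (SD, n = 3; log2 fold change -0.21, edgeR adjusted p = 0.000172).

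Genes often used as targets of β-catenin went both ways. Of 36 tested, 15 rose and 11 fell (41.7% and 30.6%, beside 19.1% and 17.4% over all genes), with a median log2 fold change of -0.02. Many of them also answer to other growth-factor signals. Tnfrsf19, among the rises, had 10, 5 and 5 counts in control and 14, 15 and 18 with PDGF-DD. It passed the filter only through the PDGF-DD libraries. Cd44, an adhesion receptor, rose from 172 ± 1.4 to 279 ± 8.31 CPM, and Ccnd1, Plaur and Myc rose by log2 fold changes of 1.13, 0.63 and 0.50. Jag1, a Notch ligand, fell from 173 ± 4.45 to 110 ± 2.71 CPM, Bmp4 from 42.2 ± 3.45 to 23.2 ± 0.82 and Ephb2 from 41.1 ± 1.76 to 25.2 ± 0.94 (SD, n = 3). The 2 most abundant of these genes, Mmp14 and Cdh2, had log2 fold changes of -0.30 and 0.14 and were both called. Without control replicate 2 or without PDGF-DD replicate 3, the number that fell was 7.

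**Figure D5:**
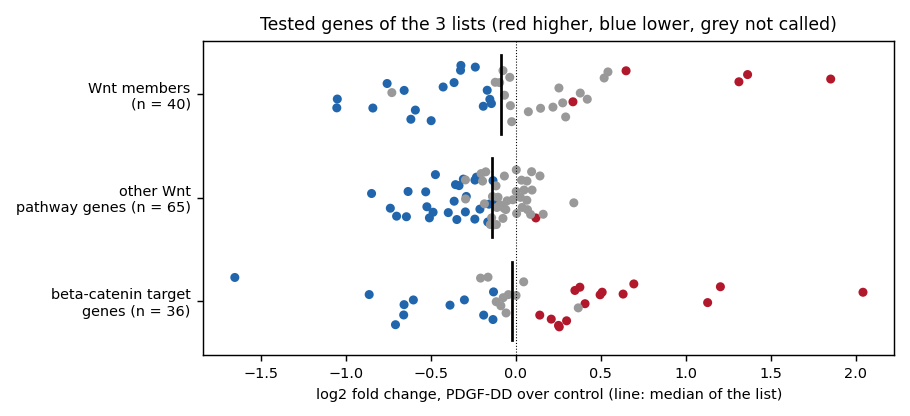
Log2 fold change (x axis) of tested members, other pathway genes and β-catenin target genes, 1 point per gene with vertical jitter, coloured by call, with the median of each list as a line. The medians are -0.09, -0.14 and -0.02, and rises of members and of targets reach 1.85 and 2.04.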

How the data were processed

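Libraries were made from poly(A) RNA by random-primed reverse transcription and read as DNA nanoballs, per the labels' protocols. The submitters' processing notes name HISAT2 2.0.4, Bowtie2 2.2.5, RSEM 1.2.12, DESeq2 1.4.5 and build mm9, without roles. Which annotation and strand setting were used is not given in the sources here, and overlapping or antisense genes may share reads. Per the file headers the authors deposited, for each library, estimated counts, FPKM (fragments scaled for length and depth) and TPM (scaled to the same total).

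Estimated counts were rounded, filtered with filterByExpr (13270 genes left), scaled with TMM (factors 0.995 to 1.005) and compared with edgeR 4.0.16 in R 4.3.3 (quasi-likelihood, robust, two-sided, Benjamini-Hochberg over all genes). CPM use TMM factors. Intervals are 95%. DESeq2 1.42.0 and limma 3.58.1 on log2(FPKM + 0.1) were alternatives. TPM served for levels between genes. Values in every library are given for called members averaging 1 CPM or more with an absolute log2 fold change of at least 0.3 and for the 2 most abundant of each role. From the pathway and target lists the text names at most 4 called genes in each direction (lowest p first), plus the top 2 by mean TPM. Tnfrsf19 is named in addition, for the way it passed the filter. Members and lists were chosen with earlier results of these data known.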

Additional observations from a re-analysis of the deposited data

How the results depend on the processing

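Of 22 called members, 22 kept their direction and 19 also their call under each of the 13 alternatives (other scalings, no filter on low counts, DESeq2, limma on FPKM, the replicate block and leaving out each library). The exceptions were Fzd7, Kremen1 and Rspo1, with values given above. Counts of members that rose lay between 5 and 7, and of those that fell between 14 (DESeq2) and 19 (no filter). With the replicate block 5 members rose and 16 fell, with Fzd7 the only changed call. Same-numbered libraries did not deviate together (correlations of their deviations -0.07, -0.09 and -0.03), so the numbers are not taken as pairs. Of the other pathway genes 0 rose under upper-quartile scaling, in DESeq2 and with the replicate block, and between 0 and 2 when 1 library was left out. Of the target genes between 7 and 12 fell when 1 library was left out. The sign of the uncalled Fzd4 changed without PDGF-DD replicate 2 (log2 fold change 0.0306, and from -0.1048 to 0.0306 over single libraries left out). The cause was not tested. Precision was limited for members under about 1 CPM, such as Axin2, Lef1, Fzd9 and Rspo1.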

Other observations

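Among the 20 members too low for the main test, Wnt16 and Wnt10a were singled out after their values were seen. Wnt16, a ligand known from bone and joint tissue, had 13, 10 and 7 counts in control and 4, 1 and 1 with PDGF-DD. Wnt10a, a ligand of skin appendages and teeth, had 11, 5 and 4 counts in control and 0, 1 and 0 with PDGF-DD. In both genes every PDGF-DD library was below every control, as was also the case for the untested Rspo2. Without the filter on low counts edgeR gave adjusted p = 0.00207 for Wnt16 and 0.000702 for Wnt10a, and DESeq2 gave no adjusted p for either. Both genes failed the planned filter and were picked by their values, so these p-values only describe them and are no support. No other member among the 20 was called in the fit without the filter, and 12 of the 20 had at most 10 counts in the 6 libraries together.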
